A study of Homo sapiens with 6 samples.

Results

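The genes described here are the expressed members of the ZNF-named zinc finger family: rows of the gene table whose symbol is ZNF followed only by digits and whose TPM averaged at least 10 over the 6 RNA-seq libraries. TPM is a read count scaled by transcript length and by library total, so it can be compared between genes. The table held 27672 genes, of which 478 had such a symbol, and 222 of these were at or above the threshold. The remaining 256 were below it. The average over all libraries chose the members, so their levels are a description, whereas the difference between conditions was not used by the rule.

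Polyadenylated RNA was sequenced from undifferentiated H9 human embryonic stem cells (hESC, day 0) and from neuromesodermal progenitor-like cells made from them (NMP-L, day 3), with 3 biological replicates of each. H9 is a single established embryonic stem cell line, so both conditions share its genotype. Per the labels, hESC were kept in DEF medium on fibronectin with bFGF at 30 ng/ml and Noggin, an inhibitor of BMP signalling, at 10 ng/ml. NMP-L cells were grown for 3 days in N2/B27 medium with bFGF at 20 ng/ml and with the Wnt pathway activator CHIR99021 at 3 µM. The study's methods give another culture medium for the undifferentiated cells, and this difference between the sources was not resolved.

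C2H2 zinc finger proteins read DNA through tandem fingers, each a short loop folded around a zinc ion, and they make up a large family of human transcription factors. Many carry a KRAB box, a domain that binds the corepressor TRIM28 (also called KAP1), which in turn brings in the histone methyltransferase SETDB1 and HP1 proteins to form heterochromatin. In embryonic stem cells this pathway is known for silencing retroelements and for keeping imprinted regions marked. Family members without a KRAB box have diverse roles, from transcriptional activation to RNA binding and quality control on ribosomes.

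The libraries held between 19454543 and 23036426 expected counts, and every member had at least 63 counts in every library. Known markers followed the labels. NANOG, DPPA4 and POU5F1, which mark pluripotent cells, were lower in NMP-L libraries, with a log2 fold change of -2.59 for NANOG. POU5F1 fell less, at -0.92, and was still high in NMP-L, at 1127 TPM on average against 1990 TPM in hESC. T, SP5, CDX1 and CDX2, which mark neuromesodermal progenitors, were between 0 and 0.34 TPM in hESC and between 11.97 and 68.03 TPM in NMP-L libraries. SOX2, shared by both states, did not pass the test, with a log2 fold change of 0.06. Among markers of other cell types, PAX6, SOX17, GATA6 and MEOX1 stayed below 0.4 TPM in every library, whereas SOX1 and FOXA2 rose, with FOXA2 between 0 and 0.22 TPM in hESC and between 11.26 and 21.29 TPM in NMP-L. The paraxial mesoderm markers were low, with TBX6 lower in NMP-L and MSGN1 between 0.38 and 1.35 TPM there. In bulk RNA, fewer cells of a type and less RNA per cell cannot be told apart, and the part of other cell types in the results below was not tested.

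A KRAB box was found in the reference proteins of 131 members and in none of 88 others, and 3 members (ZNF43, ZNF714 and ZNF788) had no canonical protein in the annotation used. Proteins of KRAB members had a median of 11 fingers of the C2H2 form, and those without a KRAB box a median of 8. The largest number was 33, in ZNF462. Chromosome 19, where this family has expanded in clusters, held 105 members (47.3%), against 7.38% of all tested genes with a mean TPM of at least 10. The next in number were chromosome 7 with 18 members, chromosome 1 with 14 and chromosome 16 with 13. Sequence similarity between family members affected the counting: 71 members (32.0%) had fractional counts in some library, which RSEM gives when reads are shared between genes, against 9.69% of tested genes at that level.

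Most members were modestly expressed. The mean TPM ran from 10.0 to 195 with a median of 17.9, and 129 members were under 20 TPM whereas 13 reached 50 TPM. The genes just inside the threshold were ZNF775, ZNF20 and ZNF888 at 10.03, 10.05 and 10.06 TPM, and those just outside it were ZNF711, ZNF605 and ZNF200 at 9.97, 9.94 and 9.88 TPM. In both conditions 195 members averaged at least 10 TPM, 9 did so only in hESC and 18 only in NMP-L. The members of these last groups entered through the condition in which they were higher, so a difference in them is in part a product of the rule. Summed over all members, hESC reached 5704, 4906 and 5329 TPM and NMP-L reached 5025, 5079 and 5544 TPM, so the conditions overlapped.

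The most abundant member was ZNF207, which encodes a microtubule-binding spindle assembly protein (BuGZ). It lay at 202, 188 and 194 TPM in hESC and at 193, 188 and 206 TPM in NMP-L. ZNF146 followed with 147, 114 and 124 TPM in hESC and 110, 116 and 135 TPM in NMP-L, and the KRAB gene ZNF649 with 97.1, 77.5 and 89.0 TPM in hESC and 97.7, 101 and 97.6 TPM in NMP-L. The TPM values of the conditions overlapped in ZNF207 and ZNF146 and were separated by a narrow gap in ZNF649, whose normalised counts overlapped, and none of these genes passed the test. Their log2 fold changes, NMP-L against hESC, were -0.08 (95% interval -0.23 to 0.07) for ZNF207, -0.19 (-0.40 to 0.02) for ZNF146 and 0.08 (-0.12 to 0.27) for ZNF649. With libraries corrected for GC content and transcript length, ZNF146 passed as lower, at -0.34 (adjusted p = 5e-05, edgeR), and so did ZNF207, at -0.27 (adjusted p = 0.040). ZNF146 also passed with upper-quartile scaling and with hESC replicate 2 left out (adjusted p = 0.049 in each). The next in level all fell. ZNF581 averaged 103 ± 8.40 TPM (SD, n = 3) in hESC and 71.4 ± 3.07 TPM in NMP-L. ZNF532 averaged 81.3 ± 6.43 and 70.2 ± 5.03 TPM, and ZNF589, a KRAB gene first described in blood stem cells, 82.2 ± 5.47 and 55.1 ± 8.35 TPM.

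Expression of the members was then compared between NMP-L cells and hESC with edgeR's quasi-likelihood test, fitted on all 15517 genes that passed a filter on low counts. Of the 222 members, all of which passed the filter, 112 differed at an adjusted p under 0.05 (50.5%), against 55.8% of all tested genes. In NMP-L 44 members (19.8%) were higher, against 29.1% of all tested genes, and 68 (30.6%) were lower, against 26.7% of all tested genes. Among tested genes with a mean TPM of at least 10 the share that differed was 55%, with 27.9% higher and 27.1% lower. More members were called with libraries corrected for GC content and transcript length, so this comparison of called shares holds for the main test only. Higher members made up 39.3% of the members called when libraries were scaled by TMM, 48.7% when scaled by library size alone and 49.5% in a limma test of log2(TPM + 1). Over all genes called the same shares were 52.1%, 59.6% and 60.9%, so the share among members was the lower one under each of these scalings. The median log2 fold change of the members was -0.04, against 0.03 over all tested genes, and it turned positive with library size alone (0.04, against 0.10 over all tested genes) and on the TPM scale (0.06, against 0.11). The hESC and NMP-L libraries did not overlap in normalised counts in 119 members (53.6%), against 61.6% of all tested genes. The p-values measure the spread between these replicates.

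**Figure D1:**
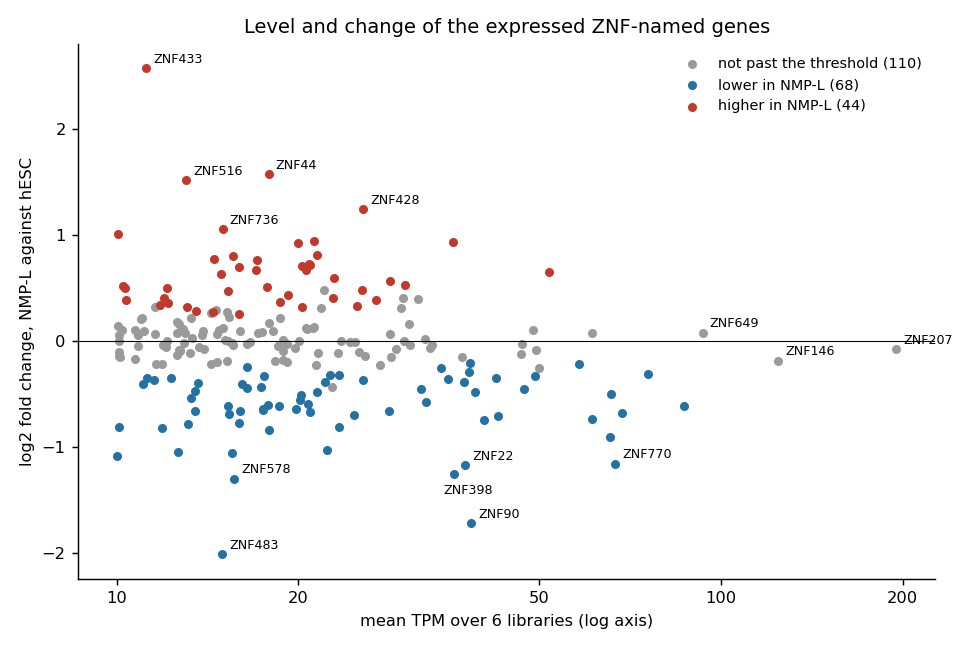
Mean TPM over the 6 libraries (horizontal log axis) against the log2 fold change, NMP-L against hESC (vertical axis), for each of the 222 members. Red points passed the test as higher in NMP-L (44), blue points as lower (68), and grey points did not pass (110). The changes of at least 2-fold include members at high level, such as ZNF770 at 66.9 TPM, and the 3 most abundant members, at the right, lie near 0.

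The differences were mostly small. Among members that passed, the median absolute log2 fold change was 0.60, and 46 of the 112 were under 0.5. A difference of at least 2-fold was called in 16 members, 6 higher and 10 lower, or 7.21% of them. All of the 6 higher ones except ZNF428 averaged under 10 TPM in hESC and became members through NMP-L. Among the lower ones, ZNF483, ZNF578 and ZNF775 became members through hESC. This count is therefore in part a product of the rule. Of all tested genes 18.6% were called at that size, 9.38% higher and 9.18% lower, and of those with a mean TPM of at least 10 the share was 9.24%. The standard error of a member's log2 fold change ran from 0.07 to 0.24 with a median of 0.11. For all 110 members that did not pass, the 95% interval lay within 1 on the log2 scale, and for 95 of them within 0.5.

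Members were then divided by the KRAB box, and each count below can be read against the 55.8% of all tested genes that were called, 29.1% higher and 26.7% lower. Of the 131 KRAB members, 25 were higher and 34 lower in NMP-L (45.0% called), with a median log2 fold change of 0.00. Of the 88 without the box, 18 were higher and 34 lower (59.1% called), with a median of -0.12. The difference between these groups of genes was not tested. Outside the chromosome 19 cluster that holds ZNF433, described below, 17 of 122 KRAB members were higher and 34 lower (41.8% called). Among the 71 members with fractional counts 42.3% were called, and among the 151 without them 54.3%. Fractional counts occurred in 62 members with a KRAB box and in 6 without it.

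The largest rise was in ZNF433 (chr19:12125530-12146556, GRCh37), a KRAB gene with 18 fingers. It lay at 3.36, 2.98 and 2.86 TPM in hESC and at 19.5, 19.9 and 18.6 TPM in NMP-L. All NMP-L libraries were several times above all hESC libraries, and the log2 fold change was 2.57 ± 0.13 (SE; 5.94-fold; adjusted p = 2.4e-08, edgeR). ZNF44 (chr19:12335501-12405698), also a KRAB gene, rose from 8.34, 9.69 and 7.64 TPM to 27.2, 27.9 and 26.3 TPM, a log2 fold change of 1.57 ± 0.12 (adjusted p = 8.7e-07). ZNF516 on chromosome 18 has no KRAB box, and its protein is known to associate with CtBP corepressor complexes. It rose from 6.79, 5.58 and 6.92 TPM to 19.9, 17.9 and 21.1 TPM, a log2 fold change of 1.51 ± 0.10 (adjusted p = 2.3e-07). These 3 genes averaged under 10 TPM in hESC and became members through NMP-L, where they were high. Their libraries did not overlap between conditions, as the choice of named genes required.

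ZNF428 lay at 14.2, 16.5 and 12.8 TPM in hESC and at 40.0, 33.9 and 36.1 TPM in NMP-L, with a log2 fold change of 1.24 ± 0.13. The KRAB gene ZNF736 on chromosome 7 rose by 1.05 ± 0.11 on that scale and ZNF20 by 1.01 ± 0.12. They averaged 9.63 and 6.37 TPM in hESC and became members through NMP-L. ZNF625 rose by 0.94 ± 0.12 and ZNF664 by 0.93 ± 0.09. For ZNF664, a gene without a KRAB box, this was a change from 23.8 ± 2.29 to 48.3 ± 4.96 TPM (SD, n = 3). Of the 8 largest rises, ZNF433, ZNF44, ZNF20 and ZNF625 lie in the same stretch of chromosome 19.

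The largest fall was in ZNF483 (chr9:114287439-114340124), a KRAB gene with a reported role in human pluripotent cells. It lay at 30.4, 14.2 and 26.4 TPM in hESC and at 5.20, 7.08 and 6.45 TPM in NMP-L. The hESC libraries differed among themselves by more than 2-fold, yet the lowest of them was above all NMP-L libraries. The log2 fold change was -2.01 ± 0.24 (adjusted p = 2.4e-05, edgeR), with the largest standard error of any member. ZNF90 (chr19:20188803-20237885) fell from 69.4, 49.8 and 55.8 TPM to 15.6, 19.6 and 21.6 TPM, a log2 fold change of -1.72 ± 0.13 (adjusted p = 7.4e-07). ZNF578 was 2.46-fold lower, falling from 21.8 ± 3.82 to 9.46 ± 1.04 TPM. ZNF483 and ZNF578 averaged under 10 TPM in NMP-L and became members through hESC, where they were high. Counts of ZNF90 and ZNF578 were fractional in all 6 libraries, so reads shared with similar genes enter their values.

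ZNF398 lay at 51.3, 47.5 and 51.3 TPM in hESC and at 21.0, 24.8 and 21.5 TPM in NMP-L, a log2 fold change of -1.25 ± 0.09. ZNF22 fell by 1.18 ± 0.11 and ZNF770 by 1.16 ± 0.19 on the log2 scale. In ZNF770 hESC replicate 1 stood above the others, at 123 TPM against 67.7 and 80.4 TPM, and the NMP-L libraries lay between 34.1 and 54.8 TPM. ZNF775 fell by 1.08 ± 0.12 and ZNF710 by 1.06 ± 0.11. With its mean just above the TPM threshold, ZNF775 became a member through hESC. hESC replicate 1 had the highest normalised count of the 3 hESC libraries in 126 of the 222 members, and hESC replicate 2 the lowest in 109. The part of these libraries in the falls was not tested, but with hESC replicate 1 left out each of the 8 largest falls still passed. Each of the 16 genes named as a largest rise or fall had the smallest p that an exact two-sided permutation test allows with 3 against 3 libraries, 0.1. This was fixed in advance, because only genes without overlap in normalised counts were named, so it adds no evidence.

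**Figure D2:**
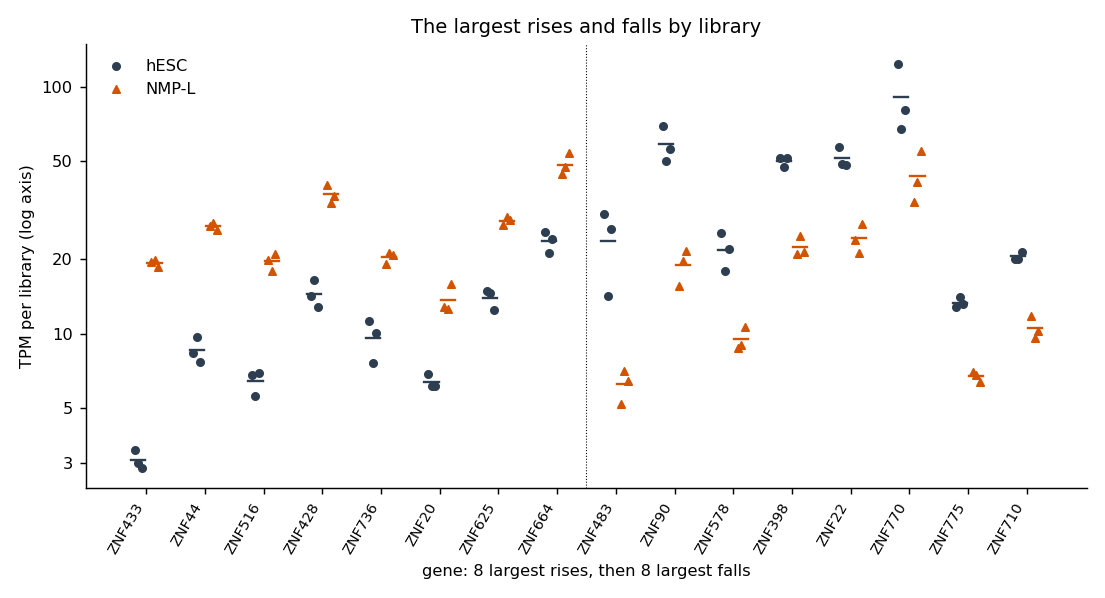
TPM in each library (vertical log axis) for the 8 members with the largest rise and the 8 with the largest fall, with hESC as circles, NMP-L as triangles and the mean of each condition as a bar. The genes were chosen to have no overlap in normalised counts. In TPM too the 3 libraries of one condition lie above the 3 of the other in every one of the 16 genes. ZNF433 shows the widest gap, at 3.07 against 19.3 TPM on average.

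Genes were next grouped by known roles. The list for pluripotency and the early embryo held 6 genes, all of them members, and all 6 were lower in NMP-L. Besides ZNF483 and ZNF398, the latter known to act with SMAD proteins in human pluripotent cells, these were ZNF281, ZNF217, ZNF296 and ZNF462. ZNF281, a repressor and activator that binds many pluripotency genes, lay at 102, 67.1 and 81.5 TPM in hESC and at 42.0, 46.3 and 54.0 TPM in NMP-L, and fell by 0.91 ± 0.13 on the log2 scale. ZNF217, which recruits the demethylase LSD1, fell by 0.73 ± 0.11, from 74.6 ± 13.7 to 47.8 ± 2.99 TPM. ZNF296 fell by 0.65 ± 0.16 and the many-fingered ZNF462 by 0.58 ± 0.08. For comparison, 26.7% of all tested genes were lower. The list was chosen with results of these data known, so its direction is not independent evidence.

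The neural and developmental list of 8 genes held only 2 members. ZNF423, a 27-finger protein known in neural precursors and BMP signalling, rose from 9.65 ± 0.63 to 14.6 ± 1.47 TPM, a log2 fold change of 0.50 ± 0.10 (adjusted p = 0.0012, edgeR). It averaged under 10 TPM in hESC and became a member through NMP-L, where it was high. ZNF292 averaged 12.7 TPM in hESC and 12.8 TPM in NMP-L and did not pass. The other 6 genes were below the TPM threshold, and ZNF536 among them was too low to be tested. ZNF521, a relative of ZNF423 that promotes neural conversion of embryonic stem cells, rose from 1.85 ± 0.07 to 4.45 ± 0.18 TPM, a log2 fold change of 1.18 ± 0.13. ZNF703 rose from 0.63 ± 0.18 to 5.17 ± 0.38 TPM and ZNF503 from 0.10 ± 0.03 to 0.69 ± 0.36 TPM. ZNF503 had only 2, 4 and 3 counts in the hESC libraries, so the size of its rise is uncertain. ZNF335 fell, with a log2 fold change of -0.41 ± 0.13, though its libraries overlapped in normalised counts. ZNF711 did not pass, at -0.02 ± 0.15.

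Of the 7 genes known from retroelement repression, 6 were members, 2 of which fell (33.3%, against 26.7% of all tested genes) and 4 did not pass. ZNF93, which binds LINE-1 elements, lay at 62.0, 49.4 and 48.0 TPM in hESC and at 41.7, 46.2 and 47.8 TPM in NMP-L, and fell by 0.33 ± 0.10 on the log2 scale (adjusted p = 0.018, edgeR). The groups were separated by a gap smaller than the spread within hESC. ZNF587 fell by 0.33 ± 0.10, from 18.9 ± 1.76 to 16.1 ± 2.23 TPM. ZNF91, which binds SVA elements, averaged 16.6 ± 4.16 TPM in hESC and 20.6 ± 4.49 TPM in NMP-L, with a log2 fold change of 0.22 (95% interval -0.15 to 0.58), and did not pass. ZNF93 lost its call without NMP-L replicate 1 (adjusted p = 0.066, edgeR), ZNF587 without hESC replicate 3 (0.071) or NMP-L replicate 2 (0.082), and ZNF91 passed without hESC replicate 1 (0.032). Counts of ZNF93 and ZNF587 were fractional in all 6 libraries and those of ZNF91 in 5. ZNF445, which protects imprinted regions, averaged 12.2 ± 0.81 and 13.8 ± 0.54 TPM, with a log2 fold change of 0.08 (-0.11 to 0.26).

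The 3 zinc finger partners of the chromatin reader ZMYND8 differed in both directions. ZNF592 rose by 0.27 ± 0.09 on the log2 scale, whereas ZNF687 fell by 0.35 ± 0.08 and ZNF532 by 0.31 ± 0.08. The call of ZNF592 was lost without hESC replicate 1, hESC replicate 3 or NMP-L replicate 1, with an adjusted p of up to 0.10 (edgeR). Of 7 members listed as chromatin or promoter factors, 3 differed (42.9%, against 55.8% of all tested genes). ZNF410, an activator whose chief known target is CHD4, rose from 14.9 ± 0.58 to 25.7 ± 2.07 TPM, a log2 fold change of 0.70 ± 0.11. ZNF618 rose by 0.28 ± 0.08. ZNF143, which binds promoters and occurs with CTCF at chromatin contacts, fell by 0.66 ± 0.10, from 19.1 ± 1.11 to 12.9 ± 1.45 TPM. Of 6 members that act on RNA, ribosomes or the spindle, ZNF598, the ubiquitin ligase that senses collided ribosomes, fell by 0.82 ± 0.11, from 25.5, 29.0 and 32.7 TPM to 18.3, 16.3 and 18.4 TPM. The double-stranded RNA binding gene ZNF346 rose by 0.40 ± 0.11, but it averaged 9.81 TPM in hESC and became a member through NMP-L. The remaining 4, with ZNF207 among them, did not pass, so that 33.3% of this list differed against the same 55.8%.

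Members on chromosome 19 were then followed by position. Genes with a symbol beginning in ZNF were joined into clusters where neighbours lay within 250 kb. The cluster at chr19:11594242-12750912 (GRCh37), which holds ZNF433, had 27 such genes and 10 members. Of these 10 members, 9 were higher in NMP-L and none was lower, with a median log2 fold change of 0.78, against 29.1% of all tested genes higher. ZNF791 was the exception, at 16.3 ± 2.53 and 18.5 ± 2.31 TPM with a log2 fold change of 0.09 (95% interval -0.19 to 0.37). ZNF433, ZNF44 and ZNF20 averaged under 10 TPM in hESC and became members through NMP-L, where they were high. Without them 6 of 7 members were higher, with a median of 0.51. The cluster was picked after its values were seen, so no test was made of it, and its bounds were the same with a gap of 100 or 500 kb. Outside it, 35 of 212 members were higher (16.5%, against 29.1% of all tested genes) and 68 lower (32.1%, against 26.7%).

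Within the cluster, ZNF844 rose from 14.5, 12.9 and 12.1 TPM to 26.0, 27.8 and 26.3 TPM, a log2 fold change of 0.92 ± 0.10. ZNF625 rose from 14.8, 14.5 and 12.4 TPM to 27.4, 29.6 and 28.7 TPM, and ZNF20 from 6.84, 6.13 and 6.14 TPM to 12.8, 12.5 and 15.9 TPM. In each of these genes all NMP-L libraries were above all hESC libraries. ZNF788, the most abundant gene of the cluster and annotated as a pseudogene, rose from 41.8, 38.9 and 36.3 TPM to 62.5, 67.7 and 64.5 TPM. ZNF700 rose by 0.51 ± 0.10, ZNF627 by 0.40 ± 0.10 and ZNF564 by 0.33 ± 0.12 on the log2 scale. ZNF564 lost its call when hESC replicate 2 or 3 or NMP-L replicate 2 or 3 was left out, with an adjusted p of up to 0.15 (edgeR). Counts were fractional in some library for 5 of the 10 members, though in no library for ZNF433 and ZNF44. ZNF20 and ZNF788 overlap on opposite strands, and the strand setting of the counting is not given in the sources used here. Counts of ZNF20 were fractional in 2 libraries and those of ZNF788 in 5, and how far these genes share reads was not tested.

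The other 17 ZNF-named genes of this cluster were below the TPM threshold, and all were tested. Of these, 9 were higher and 2 lower. ZNF441 rose by 2.46 ± 0.18, ZNF763 by 2.07 ± 0.16 and ZNF823 by 1.85 ± 0.14 on the log2 scale, the last from 2.35 ± 0.14 to 9.05 ± 0.67 TPM. ZNF439 and ZNF878 fell, by 0.98 ± 0.26 and 0.75 ± 0.17. A low gene passed the count filter more easily if it was high in one condition, so these counts are a description. Of 45 tested genes without a ZNF symbol inside the cluster or within 500 kb of it, 4 were higher (8.89%, against 29.1% of all tested genes) and 19 lower (42.2%, against 26.7%).

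**Figure D3:**
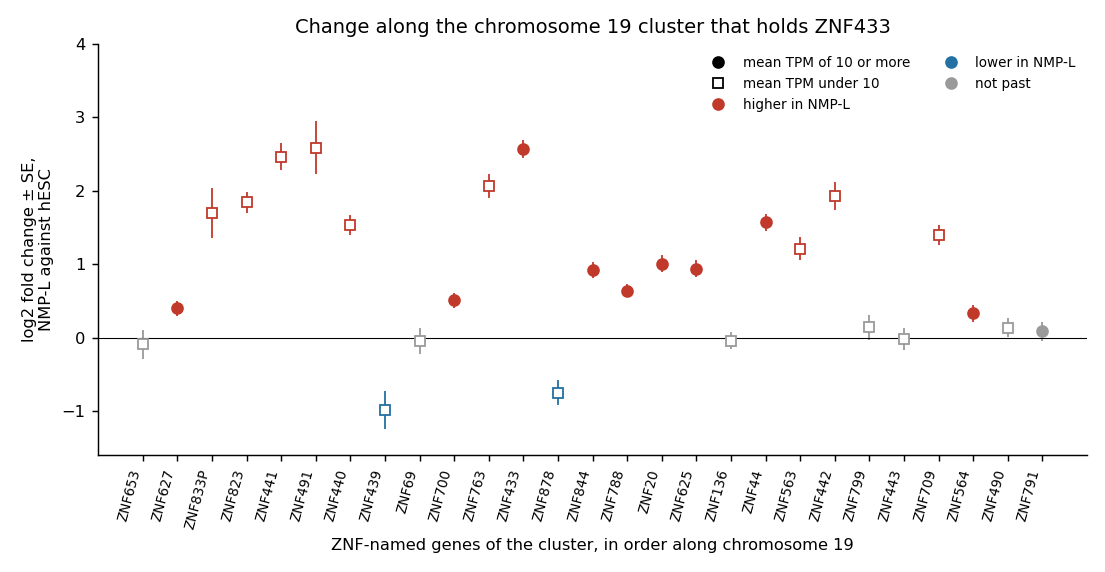
Log2 fold change, NMP-L against hESC, with its standard error, for the 27 ZNF-named genes of the chromosome 19 cluster that holds ZNF433, in order along the chromosome. Filled circles are the 10 members and open squares the 17 genes under 10 TPM, with red for higher, blue for lower and grey for not past the test. Genes that rose lie along the whole cluster, with ZNF433 highest among members at 2.57, and ZNF439 and ZNF878 lie below 0.

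No other chromosome 19 cluster with at least 5 members had as large a median, and the counts that follow stand beside 29.1% higher and 26.7% lower over all tested genes. A separate cluster at chr19:19779605-20844402 had 8 members, of which 2 were higher and 4 lower. It holds ZNF90 and ZNF93, described above, and ZNF486, which fell by 1.03 ± 0.10 from 29.3 ± 2.06 to 15.4 ± 1.82 TPM, whereas ZNF682 rose by 0.80 ± 0.11 from 10.9 ± 1.15 to 20.3 ± 1.87 TPM. At chr19:21106028-24312770, 3 of 12 members were higher and none lower, with ZNF85 rising by 0.81 ± 0.15. The large clusters at chr19:52074536-54083523 and chr19:57702868-58992597 had 4 higher and 5 lower of 25 members, and 1 higher and 6 lower of 20.

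Promoter sequence was read to see what the co-located genes share. For genes of the ZNF433 cluster that rose, for ZNF90 and ZNF486 that fell in the separate cluster described above, and for ZNF483, the largest fall, 120 bases upstream of the canonical transcript start are given 5′ to 3′ on the gene's strand (GRCh37; where another transcript starts further upstream, the window was moved so that at most 20 bases lie inside the gene). Capitals mark CCAAT, the sequence of the CCAAT box, a common promoter element bound by the factor NF-Y. The windows are chr19:12146537-12146656 (minus strand) for ZNF433, chr19:12405699-12405818 (minus) for ZNF44, chr19:12251166-12251285 (minus) for ZNF20, chr19:12267550-12267669 (minus) for ZNF625, chr19:12175426-12175545 (plus) for ZNF844, chr19:12035783-12035902 (plus) for ZNF700, chr19:20188689-20188808 (plus) for ZNF90, chr19:20277903-20278022 (plus) for ZNF486 and chr9:114287339-114287458 (plus) for ZNF483.
ZNF433: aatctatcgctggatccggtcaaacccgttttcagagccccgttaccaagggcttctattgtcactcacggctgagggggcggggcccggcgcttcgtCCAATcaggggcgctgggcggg
ZNF44: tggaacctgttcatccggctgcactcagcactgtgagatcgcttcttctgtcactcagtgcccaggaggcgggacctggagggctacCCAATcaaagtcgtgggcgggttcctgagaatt
ZNF20: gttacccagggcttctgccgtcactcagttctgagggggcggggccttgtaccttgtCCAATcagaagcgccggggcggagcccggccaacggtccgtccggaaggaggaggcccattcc
ZNF625: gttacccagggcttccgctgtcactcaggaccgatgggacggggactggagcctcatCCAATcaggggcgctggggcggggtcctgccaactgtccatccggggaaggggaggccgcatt
ZNF844: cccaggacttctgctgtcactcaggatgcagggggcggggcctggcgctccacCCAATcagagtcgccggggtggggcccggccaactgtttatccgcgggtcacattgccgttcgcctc
ZNF700: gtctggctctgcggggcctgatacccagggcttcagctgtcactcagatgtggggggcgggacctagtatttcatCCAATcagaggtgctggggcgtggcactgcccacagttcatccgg
ZNF90: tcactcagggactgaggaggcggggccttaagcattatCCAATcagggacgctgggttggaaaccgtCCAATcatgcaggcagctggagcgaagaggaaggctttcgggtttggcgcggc
ZNF486: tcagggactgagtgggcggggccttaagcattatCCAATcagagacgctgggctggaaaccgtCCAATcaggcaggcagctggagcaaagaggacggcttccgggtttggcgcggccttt
ZNF483: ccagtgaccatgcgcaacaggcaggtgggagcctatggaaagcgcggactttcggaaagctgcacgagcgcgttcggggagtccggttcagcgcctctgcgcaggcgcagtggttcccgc

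The windows of the cluster's genes are alike around this element. ZNF433, ZNF20, ZNF625 and ZNF700 hold TCCAATCAG with the first base of CCAAT 63 or 64 bases upstream of the canonical start. ZNF844 holds CCAATCAG preceded by C in place of T, at 67 bases, and ZNF44 holds CCAAT in another context, at 33 bases. ZNF90 and ZNF486, which fell, hold TCCAATCAG followed by another CCAAT, which in ZNF486 lies in another TCCAATCAG. ZNF483 holds no CCAAT in its window. The 9-base sequence TCCAATCAG, chosen after these sequences were seen, was then counted on both strands in the 250 bases upstream of the canonical start of 19002 protein-coding genes. It was present in 0.963% of all promoters, in 17.4% of the 219 member promoters, in 28.2% of those with a KRAB box and in 1.14% of those without. It was in 7 of the 9 member promoters of the ZNF433 cluster and in 20 of the 24 promoters of its ZNF-named genes. It was also in all 8 member promoters of the cluster that holds ZNF90 and in all 10 member promoters that could be read in the next, and in none of the 25 and 20 in the clusters near the end of the chromosome. By direction, it was in 27.9% (12 of 43) of the promoters of members that rose, 11.8% of those that fell and 16.7% of those that did not pass. The promoters seen before the choice were mostly of ZNF433 cluster genes that rose, and these are counted again here. Members of that cluster, which rose apart from ZNF791, hold it in 7 of 9 promoters. The shares by direction are therefore not independent of the choice, and their difference was not tested. CCAAT alone, which TCCAATCAG contains, was in 34.3% of all promoters, 47.0% of member promoters and 58.0% of KRAB member promoters. A match is a description of the sequence, and no binding was measured here.

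Genes of the pathway through which KRAB proteins act were compared in the same fit. Of 14 genes on the list, 9 differed, 3 of them higher and 6 lower in NMP-L, which is 64.3% called against 55.8% of all tested genes. TRIM28, the corepressor that KRAB boxes bind, was more abundant than any member, at 674, 763 and 763 TPM in hESC and 513, 509 and 466 TPM in NMP-L. The libraries did not overlap, and TRIM28 fell by 0.66 ± 0.09 on the log2 scale (adjusted p = 6.1e-05, edgeR). MORC2, an ATPase that works with the HUSH silencing complex, fell by 1.02 ± 0.09, from 43.3, 45.8 and 46.9 TPM to 25.5, 22.8 and 23.6 TPM. ATF7IP, the partner of SETDB1, fell by 0.57 ± 0.12, and the HP1 genes CBX3 and CBX1 fell by 0.45 ± 0.10 and 0.26 ± 0.07.

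In the other direction, CBX5, which encodes HP1α, rose by 0.45 ± 0.11, from 148, 103 and 123 TPM to 167, 178 and 199 TPM. The methyltransferase SETDB1 rose by 0.28 ± 0.09 and PPHLN1, a HUSH subunit, by 0.25 ± 0.08. Both of these calls were lost without NMP-L replicate 1 or 2, that of SETDB1 also without hESC replicate 1 and that of PPHLN1 without hESC replicate 3, with adjusted p up to 0.081 (edgeR). With the correction for GC content and length PPHLN1 was at 0.088 and did not pass (adjusted p = 0.30). ZFP57, a KRAB protein that guards imprints, was the lowest gene of the list, with 17, 21 and 24 counts in hESC and 1, 0 and 0 counts in NMP-L, and it passed as lower. Because the NMP-L counts lie under a floor of 3 counts, no fold is given for it. CHD3, CHD4, FAM208A (TASOR), MPHOSPH8 and SMARCAD1 did not pass, with log2 fold changes between -0.09 and 0.13.

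**Figure D4:**
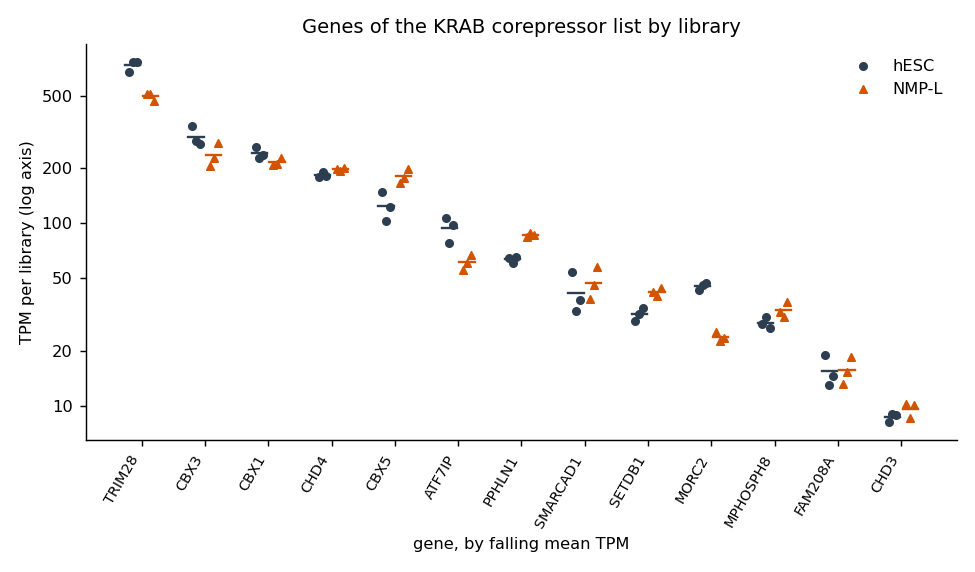
TPM in each library (vertical log axis) for 13 genes of the KRAB corepressor list, ordered by mean level, with hESC as circles, NMP-L as triangles and condition means as bars. ZFP57 is left out because it is at 0 TPM in 2 libraries. TRIM28 and MORC2 lie lower in all NMP-L libraries, and CBX5 lies higher.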

How the data were processed

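RNA-seq of 6 samples (single-end, 76 bp, 3 hESC and 3 NMP-L) was used. For each gene the authors deposited expected counts from RSEM, not normalised between libraries, and TPM values, scaled by RSEM for transcript length and library total. The submitters' processing notes name cutadapt 1.9.1, STAR 2.5.2a, RSEM 1.3.0, DESeq2 1.12.3 and hg19, without their roles. The annotation is not given in the sources used here.

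Expected counts were rounded and tested in R 4.3.3 with edgeR 4.0.16 (filterByExpr with a minimum count of 10, TMM, glmQLFit and glmQLFTest for condition), with Benjamini-Hochberg adjustment over all genes tested. The standard error is the log2 fold change divided by the square root of F. The fits were also run on simulated counts. Library totals lay between 19454543 and 23036426 counts, and 0 per-sample columns were left unused.

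Symbols were matched to GENCODE release 44 on GRCh37. KRAB boxes were found in canonical proteins with a profile built with MAFFT 7.526 and HMMER 3.4 (E-value under 0.001), and promoters were read from GRCh37. Replicate numbers did not pair the samples (correlation of deviations between -0.37 and -0.06), so no block was fitted in the main test.

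The genes named are the 8 largest rises and falls past the threshold without overlap, the 6 highest in TPM, the 3 highest not past it, those nearest the TPM threshold, and the role and corepressor lists. Genes named from the chromosome 19 clusters outside these were chosen after their values were seen. The members and lists were chosen with earlier results of these data known. Alternatives were other scalings, filters, DESeq2 1.42.0, limma 3.58.1 on TPM, a replicate block, a GC and length offset, other TPM thresholds, and each library left out.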

Additional observations from a re-analysis of the deposited data

How the results depend on the processing

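Between 93 and 116 members differed with 1 library left out, between 37 and 49 higher and between 56 and 68 lower. Higher members then made up between 35.2% and 43.9% of those called, against between 50.7% and 52.6% over all genes called. The other scalings, filters and DESeq2 gave between 110 and 114 members. The share of all tested genes called is not given for the alternatives, so these counts show only how the member calls moved. The split changed more: 55 higher and 58 lower with library size alone, 49 and 50 by limma on log2(TPM + 1), and 53 and 90 with the GC and length offset. With that offset higher members made up 37.1% of the members called, against 52.0% over all genes called. It called more members than the main test, so the main comparison of called shares cannot be carried over to it. With replicate number as a block, 96 members differed, 39 higher and 57 lower, so 40.6% of those called were higher, against 51.8% over all genes called. In both limma tests of TPM 6 members were at least 2-fold lower. A threshold of 5 TPM gave 334 members, of which 152 differed, 68 higher and 84 lower. One of 20 TPM gave 93, of which 54 differed, 17 higher and 37 lower. These counts move because the threshold changes which genes are counted. Of 224 tested ZNF-named genes below the main threshold, 67 were higher and 25 lower. Higher genes made up 72.8% of those called there, against 52.1% over all genes called. The lean of the members to lower therefore did not extend to the ZNF-named genes below the main threshold. A low gene passed the count filter more easily if it was high in one condition, so these shares are a description.

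Of the corepressor genes, 1 was higher with the replicate block, and between 1 and 3 with a library left out. It was 1 without NMP-L replicate 1 and without NMP-L replicate 2. The cause was not tested. Of 52 named genes followed, 38 were on the same side of the threshold, in the same direction, in every alternative. None of the 47 called ones changed direction, and 9 lost the call in some alternative: ZNF532, ZNF587, ZNF592, ZNF618, ZNF93, ZNF564, SETDB1, CBX1 and PPHLN1. Of those not past the threshold, ZNF207 was at 0.011 in both limma tests but passed as lower, at -0.27, with the GC and length offset, ZNF649 at -0.029 with the GC and length offset and -0.032 with that offset and the block, and ZNF791 at -0.026 with that offset, with and without the block, and between -0.00974 and 0.17 with a library left out (lowest without hESC replicate 2). With 3 replicates per condition the standard errors had a median of 0.11, which limits calls of small changes.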
